A study of Mus musculus with 23 samples.

Results

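The genes described here encode the secreted and membrane-bound metalloproteases that cut the extracellular matrix and cell-surface proteins, together with their tissue inhibitors. They were taken by symbol: every gene with a matrix metalloprotease (Mmp), Adam, Adamts or Timp symbol, each standing with 1 probe set, that of the highest mean signal across the 23 arrays. This gave 65 of the 18193 genes with a single symbol on the array, namely 28 Adam, 15 Adamts, 18 Mmp and 4 Timp genes. A filter removed genes that did not exceed the array's 40th percentile on 2 or more arrays. It kept 48 of the 65, namely 16 Adam, 13 Adamts, 15 Mmp and 4 Timp genes, within 15378 genes of any kind. Mmp15 and Adamts2 had no probe set with a single symbol and were not analysed here.

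Messenger RNA had been isolated from mammary epithelial cells of female C57BL/6 mice and hybridised as biotin-labelled cRNA to 23 Affymetrix arrays. The labels name 3 cell types, stem cells (8 arrays), luminal progenitors (7 arrays) and mature luminal cells (8 arrays). The stages were virgin mice of 3 and 9 weeks, mice at day 10, day 16 and day 19 of pregnancy, and retired breeders, which have bred before and are older, so parity and age cannot be told apart. All mice were of this 1 strain, and the labels mention no transgene or drug. Only mature luminal cells were hybridised for day 19. There were 16 combinations of stage and type, and 7 had 2 arrays: all cell types at 9 weeks, stem cells and luminal progenitors at 3 weeks, and stem and mature luminal cells at day 10. The other 9 groups had 1 array each. The labels do not say how many mice gave an array, by which markers the cells were purified, or whether the arrays of a group came from separate animals, so the p-values reflect variation among these arrays, part of which may be technical.

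Matrix metalloproteases digest collagens, laminins and other matrix proteins, and are known in the mammary gland from ductal branching in puberty and from regression after weaning. Adam proteases cut membrane proteins near the cell surface and so release growth factors such as the ligands of the EGF receptor. Most Adamts proteases are secreted and cut proteoglycans or process procollagens, and the Timp proteins block the active site of all these families to differing degrees. Several Mmp genes form a cluster in the genome and are classic targets of the AP-1 transcription factors, whose binding sequence is TGANTCA.

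Promoter sequences are shown first because they separate the clustered Mmp genes from most other members. In the gene order of the mouse reference, Mmp13, Mmp12, Mmp1b, Mmp3, Mmp1a, Mmp10 and Mmp8 directly follow each other, and Mmp20 and Mmp7 follow Mmp8 with 1 other gene between. The RefSeq promoter table (build GRCm38.p6) held 37 of the 65 members, with 42 promoters. Each was searched on both strands over the 250 bases before the start site. The AP-1 sequence TGANTCA occurred in 8 of the 9 clustered Mmp genes, all but Mmp8, and in 2 of the 28 other members found, Adam19 and Adam25. A gene counted if any of its promoters matched. By promoter, 8 of 11 in the cluster and 10 of 42 over all members matched, against 6.75% of all 32851 promoters. The TATA sequence TATAAA occurred in 7 of the 9 clustered genes and 3 of the 28 others. By promoter these were 7 of 11 in the cluster and 10 of 42 over all members, against 12.4% of all promoters. The GC box GGGCGG occurred in 0 of the 9 clustered genes and 15 of the 28 others. By promoter these were 0 of 11 in the cluster and 15 of 42 over all members, against 32.7% of all promoters. Matches to different motifs cannot overlap each other.

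The sequences below are the 110 bases that end at the base before the start site, written 5′ to 3′ on the strand of the gene, with matches to these motifs in capitals. Those of Mmp3 (chr9:7445712-7445821, plus strand), Mmp10 (chr9:7502232-7502341, plus), Mmp12 (chr9:7347264-7347373, plus), Mmp13 (chr9:7272404-7272513, plus) and Mmp7 (chr9:7691980-7692089, plus) each carry TGANTCA. For Mmp12 and Mmp7 only promoters with TGANTCA in these bases are shown. Mmp14 (chr14:54431488-54431597, plus) and Adamts1 (chr16:85803114-85803223, minus) carry GGGCGG instead, and are shown because their values differed between cell types.
Mmp3: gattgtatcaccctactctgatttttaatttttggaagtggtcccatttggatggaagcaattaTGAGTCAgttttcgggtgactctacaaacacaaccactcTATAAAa
Mmp10: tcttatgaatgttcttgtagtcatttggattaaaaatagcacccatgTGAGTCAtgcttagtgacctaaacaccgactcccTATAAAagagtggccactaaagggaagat
Mmp12: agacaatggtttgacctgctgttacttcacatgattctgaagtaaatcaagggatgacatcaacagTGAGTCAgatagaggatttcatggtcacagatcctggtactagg
Mmp13: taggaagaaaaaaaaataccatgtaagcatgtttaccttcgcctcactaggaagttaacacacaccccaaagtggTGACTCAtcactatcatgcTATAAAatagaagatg
Mmp7: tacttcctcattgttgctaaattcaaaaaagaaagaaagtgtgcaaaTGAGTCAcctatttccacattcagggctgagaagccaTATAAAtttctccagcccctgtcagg
Mmp14: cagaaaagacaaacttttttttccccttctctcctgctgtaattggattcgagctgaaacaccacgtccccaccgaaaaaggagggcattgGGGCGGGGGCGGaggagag
Adamts1: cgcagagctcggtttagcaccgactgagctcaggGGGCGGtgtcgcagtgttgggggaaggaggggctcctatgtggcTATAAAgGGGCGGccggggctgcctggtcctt
The first base of TGANTCA lay at position -46 from the start site in Mmp3, -63 in Mmp10, -44 in Mmp12, -35 in Mmp13 and -63 in Mmp7. Mmp12 had no TATAAA in the 250 bases searched. A match describes the letters only, and no binding was measured.

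Values were on a log2 scale, with array medians from 4.51 to 5.47. Levels are given per probe set and cannot be ranked between genes. On 21 arrays the Gapdh control probe sets were 0.87 to 2.72 higher at the 3′ end than at the 5′ end. The excess was 5.16 on the 3-week mature luminal array and 3.77 on the retired stem cell array, a known sign of shortened RNA. All counts of members called between cell types or stages were within 1.5 times of the main count without these arrays. Array titles carry a replicate number in part: 8 arrays are titled replicate 1, and the 15 others are titled replicate 2 or carry no number. Arrays of the same number deviated from their group means together, so the fit with the number as a block is given where it changed a call or a count in the comparisons described.

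The label of the cell types was set against marker genes. The mean of 8 basal markers, among them Krt5 and Krt14, ran from 9.76 to 12.82 on stem cell arrays, from 7.37 to 11.13 on luminal progenitor arrays and from 6.90 to 9.67 on mature luminal arrays. The mean of 10 fibroblast and stromal markers ran from 6.39 to 9.21, from 6.69 to 10.65 and from 3.62 to 8.10 in the same order. The mean of 8 endothelial markers ran from 5.82 to 11.27, from 5.44 to 7.87 and from 4.97 to 7.83. No gene of these 3 lists was at 0 on any array. The endothelial marker mean was highest on the stem cell arrays of 3-week mice (11.27 and 10.97) and 9-week mice (9.41 and 9.63), and lower on those of pregnancy (5.82 to 6.76). The day 10 and day 16 luminal progenitor arrays had the highest stromal marker means (10.29 and 10.65). Luminal progenitor markers were higher in mature luminal cells than in luminal progenitors at day 10 (11.5 and 11.4 against 10.9). The same held at 3 weeks (10.6 against 9.9 and 9.9). Hormone-sensing markers were higher in luminal progenitors at 3 weeks (12.0 and 11.6 against 11.3) and day 16 (9.2 against 6.8). At the other stages with both types, each list was higher in the type it marks. On such preparations, fewer cells of a type and less RNA per cell cannot be told apart.

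The 17 members that missed the filter had no value above 4.54 (Adamts19, on 1 stem cell array). They were Adam1a, Adam1b, Adam2, Adam4, Adam6a, Adam7, Adam21, Adam24, Adam25, Adam26a, Adam32, Adam34, Adamts16, Adamts19, Mmp1a, Mmp1b and Mmp20. Many of these Adam genes are known for roles in the testis and sperm. Mmp20 acts in tooth enamel.

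**Figure D1:**
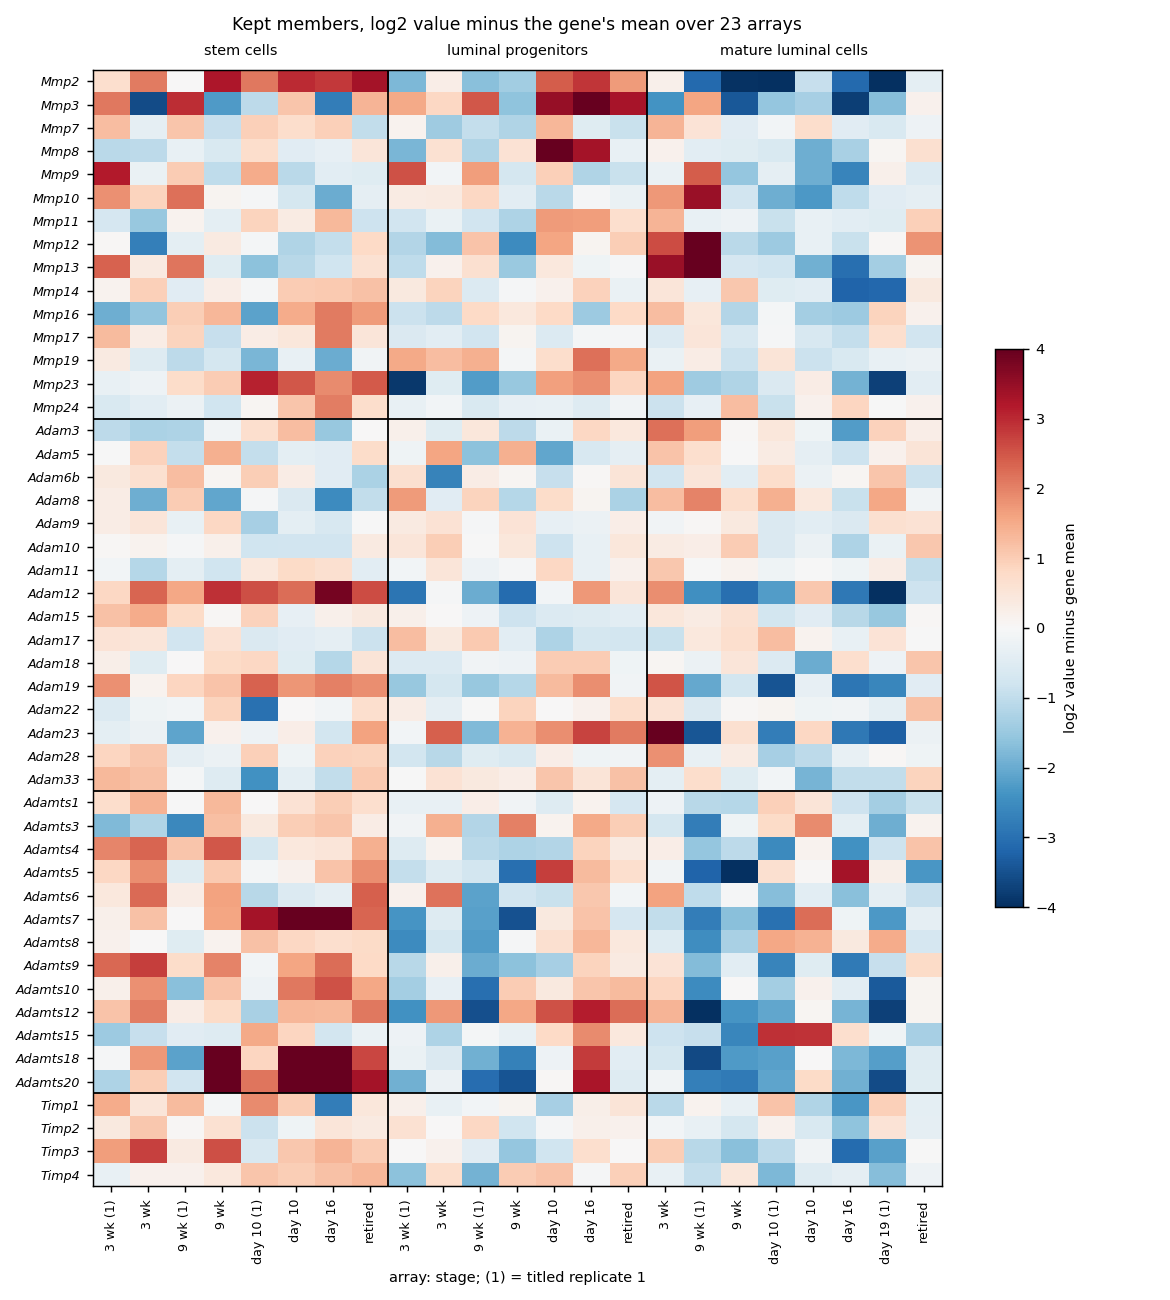
Each row is 1 of the 48 members kept and each column 1 of the 23 arrays, grouped by cell type, and the colour gives the log2 value minus the mean of that gene over all arrays. Mmp2, Adamts18 and Adamts20 are red on most stem cell arrays and blue on most mature luminal arrays, and Mmp3 changes colour between arrays of the same group.

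Mature luminal cells had lower levels of 12 members than stem cells, and no member was called higher. They were Mmp2, Mmp14 and Mmp23, Adam12 and Adam19, Adamts1, Adamts4, Adamts7, Adamts9, Adamts18 and Adamts20, and Timp3. Differences were means over the 5 stages that hold both types, and a call needs an adjusted p under 0.05 in limma (Benjamini-Hochberg, 15378 genes). The 12 calls were 25.0% of the 48 members, against 8.34% of all genes called in either direction, 1.56% higher and 6.78% lower. The median difference was -0.69 over the 48 members and 0.03 over all genes. With the replicate block 19 members were called, 18 of them lower, against 19.7% of all genes, 6.71% higher and 12.9% lower. The members added by the block were Adam8 on the higher side, and Adamts5, Adamts6, Adamts10, Adamts12, Mmp17 and Timp4 on the lower side. Without the day 16 stem cell array or the day 16 mature luminal array, either of which drops that stage, 4 members were called. Counts from fits without single arrays stand here and below without the share of all genes. Their changes need not be particular to the members. No member separated the 2 cell types without overlap of single arrays, against 0.241% of all genes higher and 1.06% lower.

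Mmp2 encodes gelatinase A, which digests denatured collagen and collagen IV of basement membranes. Its 8 stem cell arrays ran from 7.75 to 11.05 with a median of 10.19, and its 8 mature luminal arrays from 3.52 to 7.92 with a median of 4.61. Only the highest mature luminal array, of 3-week mice, reached above the lowest stem cell array, of 9-week mice. The difference was -4.21 ± 0.65 (standard error, adjusted p = 0.00213 in limma), and its other probe set gave -4.18. It was -4.68 within arrays titled replicate 1 and -4.53 within the others. Leaving out any array kept the call, with differences from -4.97 to -3.78. Luminal progenitors lay between, from 5.93 to 10.58 with a median of 8.01, and their 2 highest arrays were those of day 16 (10.58) and day 10 (10.15). On those arrays the stromal marker mean was also highest, and the part of stromal RNA in the Mmp2 level was not tested. With the block Mmp2 fell from stem cells to luminal progenitors (-1.55, adjusted p = 0.0390 in limma) and from luminal progenitors to mature luminal cells (-2.81, adjusted p = 0.0133). Without it the adjusted p was 0.270 and 0.181.

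Mmp14, the membrane-anchored protease that activates Mmp2 together with Timp2, spanned 9.27 to 10.89 in stem cells and 6.51 to 10.81 in mature luminal cells. The medians were 10.34 and 9.35, and the ranges overlapped widely. The difference of -1.11 ± 0.31 (adjusted p = 0.0468 in limma) rested on 1 stage: without the day 16 stem cell array, which drops that stage, it was -0.32. Within the arrays titled replicate 1, which hold no day 16 array, it was -0.08. Its other 2 probe sets gave -0.52 and -0.60, and quantile scaling ended the call (adjusted p = 0.0711). Mmp23, a small membrane-bound member, was lower by -1.99 ± 0.49 (adjusted p = 0.0263), with medians of 8.30 and 5.96. The Mmp23 call was lost in 7 of 15 fits without a single array, with differences from -2.95 to -1.54. At 3 weeks the direction was reversed, with 8.44 in mature luminal cells against 6.63 and 6.54 in stem cells. Mmp17, another membrane-type protease, was called only with the block (-1.24, adjusted p = 0.0370 in limma).

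Adam12 and Adam19, the meltrins alpha and beta, are known from muscle, bone and mesenchyme and shed EGF-family ligands. Adam12 ran from 6.35 to 9.35 on stem cell arrays and from 1.03 to 7.39 on mature luminal arrays, with medians of 7.99 and 3.18. Its difference was -3.56 ± 0.64 (adjusted p = 0.00484 in limma), and its other probe set gave -2.28. It was lower in luminal progenitors too, which ran from 2.46 to 7.28, by -2.90 ± 0.64 (adjusted p = 0.0263). Adam19 ran from 4.83 to 7.06 on stem cell arrays and from 1.23 to 7.21 on mature luminal arrays. Its ranges overlapped through 1 mature luminal array only, that of 3-week mice (7.21), where the Gapdh excess was largest. On all other mature luminal arrays Adam19 was at or below 4.37. Its difference was -2.42 ± 0.54 (adjusted p = 0.0172), while its other probe set gave -0.89. It was -4.40 within arrays titled replicate 1 and -1.77 within the others, and -1.09 with values under the array median raised to it.

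Adam8, a protease known from leukocytes that cuts itself into its active form, went the other way. It ran from 5.70 to 9.23 on stem cell arrays and from 7.31 to 10.19 on mature luminal arrays. The difference of 1.53 ± 0.62 had an adjusted p of 0.171 in limma, and with the replicate block it was 1.70 with an adjusted p of 0.00217. Adam10 and Adam17, the main sheddases of epithelial cells, were not called in any comparison between cell types. Adam10 medians were 12.02 in stem cells, 12.46 in luminal progenitors and 12.02 in mature luminal cells. Adam17 medians were 9.56, 9.56 and 10.27, and its differences were at most 0.33 in size. Adam15, a metalloprotease with an integrin-binding site, was below its stem cell level in luminal progenitors with the block only (-0.87, adjusted p = 0.0271 in limma).

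The Adamts family gave 6 of the 12 calls. Adamts9, which cuts versican and aggrecan, ran from 9.62 to 12.48 on stem cell arrays, from 7.74 to 10.63 on luminal progenitor arrays and from 6.91 to 10.49 on mature luminal arrays. It was lower by -2.36 ± 0.44 in mature luminal cells (adjusted p = 0.00657 in limma) and by -1.99 ± 0.44 in luminal progenitors (adjusted p = 0.0284). Adamts1, a protease of versican, ran from 11.32 to 12.70 in stem cells, from 10.66 to 11.58 in luminal progenitors and from 9.95 to 12.29 in mature luminal cells. Its differences were smaller, -1.19 ± 0.23 (adjusted p = 0.00853) in mature luminal cells and -0.98 ± 0.23 (adjusted p = 0.0379) in luminal progenitors. Within arrays titled replicate 1 they were -0.32 and -0.05, and within the others -1.49 and -1.27. Quantile scaling gave the luminal progenitor difference an adjusted p of 0.0524. Adamts4, an aggrecanase, had medians of 11.75 and 9.55 in stem and mature luminal cells, a difference of -1.85 ± 0.41 (adjusted p = 0.0166).

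Adamts18 and Adamts20 varied widely among stem cell arrays. Adamts18 is known from the myoepithelial layer of the mammary gland. Its 8 stem cell arrays gave 7.31 and 5.52 at 3 weeks, 10.03 and 3.44 at 9 weeks, 9.91 and 6.44 at day 10, 10.28 at day 16 and 8.24 in retired breeders, where the later value of each pair is from the array titled replicate 1. Adamts20, a versican protease, gave 5.68 and 3.46, 9.06 and 3.93, 9.95 and 6.84, 9.43 and 8.02 in the same order. For both genes the array titled replicate 1 was the lower of each stem cell pair. On that array of each pair the basal marker mean was also the lower and the luminal marker mean the higher. The part of the cell mixture in the values of both genes was not tested. In mature luminal cells they ran from 1.98 to 5.60 and from 1.11 to 5.44. The differences from stem cells were -3.80 ± 0.96 (adjusted p = 0.0307 in limma) and -3.90 ± 0.87 (adjusted p = 0.0172). The other probe set of Adamts18 above the filter gave -1.10, and its difference was -2.25 within arrays titled replicate 1 and -4.63 within the others. Adamts7, a protease of cartilage oligomeric matrix protein, was lower by -3.14 ± 0.77 (adjusted p = 0.0265), from a stem cell median of 5.51 to 2.21, and by -1.18 with values under the array median raised to it.

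Among the inhibitors only Timp3 was called. Timp3 binds to the matrix and blocks Adam17 and several Adamts proteases as well as Mmp proteases. It ran from 9.23 to 12.61 on stem cell arrays, from 8.32 to 10.54 on luminal progenitor arrays and from 6.79 to 10.85 on mature luminal arrays. The difference was -2.08 ± 0.42 (adjusted p = 0.0101 in limma), and its other probe sets gave -1.96 to -2.18. It was -1.09 within arrays titled replicate 1 and -2.54 within the others. Timp1, Timp2 and Timp4 differed by -0.92 ± 0.41, -0.84 ± 0.29 and -1.21 ± 0.56 without a call. With the block Timp4 was called (adjusted p = 0.0322) and Timp1 and Timp2 were not.

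**Figure D2:**
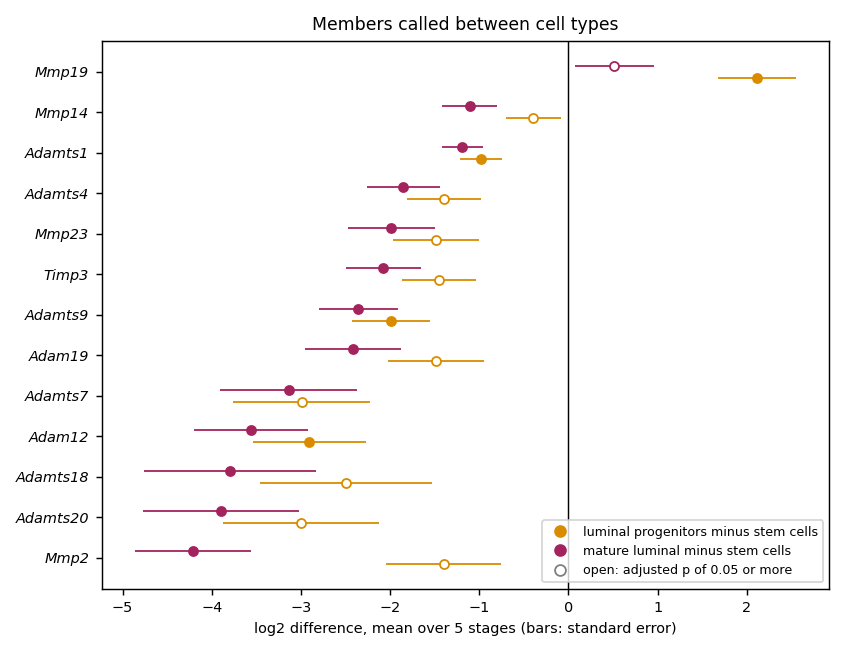
Points give the log2 difference of luminal progenitors and of mature luminal cells from stem cells for the 13 members called in either comparison, with bars of 1 standard error and open points for an adjusted p of 0.05 or more. Mmp19 is the member to the right of 0 in luminal progenitors, and Mmp2 has the lowest mature luminal value, at -4.21.

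Luminal progenitors differed from stem cells in 4 members, 8.33% of the 48 members against 4.38% of all genes, of which 0.78% were higher and 3.6% lower. Adam12, Adamts1 and Adamts9 were lower, and Mmp19, a protease of basement membrane components, was higher. Mmp19 ran from 3.64 to 5.97 on stem cell arrays and from 5.53 to 7.81 on luminal progenitor arrays, a difference of 2.12 ± 0.44 (adjusted p = 0.0213 in limma). The other Mmp19 probe set gave -0.12, and the mean of both had an adjusted p of 0.343. Without the stem cell array of 3-week mice titled replicate 2, 0 members were called. The count was 1 without the day 10 luminal progenitor array, 2 without the 3-week luminal progenitor array titled replicate 1 and 8 without the 9-week stem cell array titled replicate 1. With the block 16 members were called, 4 higher and 12 lower, against 14.4% of all genes, 4.81% higher and 9.62% lower. The 12 added by the block were Adam8, Mmp3 and Mmp8 on the higher side, and Adam15, Adamts4, Adamts7, Adamts10, Adamts18, Adamts20, Mmp2, Mmp23 and Timp3 on the lower side. Mmp8 passed the filter only through 2 luminal progenitor arrays, so its call follows from the filter and supports nothing.

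Between mature luminal cells and luminal progenitors 0 members were called in limma, against 0.124% of all genes, and 7 had an unadjusted p under 0.05. With the block Mmp2 and Mmp3 were called, against 0.995% of all genes. Mmp3, stromelysin 1, digests proteoglycans and fibronectin and activates other proteases. It was higher by 3.21 in luminal progenitors than in stem cells with the block (adjusted p = 0.0285) and lower by -4.26 in mature luminal cells than in luminal progenitors (adjusted p = 0.0458). Without the block the adjusted p was 0.208 and 0.393. Its highest values, 10.31 and 9.25, were those of the day 16 and day 10 luminal progenitor arrays, where the stromal marker mean was highest too (10.65 and 10.29).

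Markers moved with these differences. In mature luminal against stem cells, 7 of 8 basal markers, 4 of 10 stromal markers and 5 of 8 endothelial markers were called lower. In luminal progenitors against stem cells, 5 of 8 basal and 3 of 8 endothelial markers were called lower, while the 10 stromal markers had a median difference of 1.22 with 0 called. In mature luminal cells against luminal progenitors 2 of 10 stromal markers were called lower, with a median of -3.40. The part of the basal, stromal and endothelial RNA in the protease differences was not tested.

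Genes that work with the members were counted from fixed lists. Matrix substrates, the collagens, proteoglycans and glycoproteins that these proteases cut, were called lower in mature luminal than in stem cells for 13 of 16 kept genes. Of all genes 6.78% were called lower. The median was -3.17 over the list and 0.03 over all genes. Among the matrix substrates Fbln2, a basement membrane fibulin, differed by -4.28 ± 0.38, Vcan, the versican gene, by -3.90 ± 0.39, and Col4a1, a chain of basement membrane collagen, by -3.19 ± 0.32. Col1a1, Col1a2, Col3a1, Dcn and Lum are also stromal markers, so the matrix substrate and stromal lists are not separate observations. Of 21 genes of other matrix-turnover systems 6 were lower, among them Htra1, a serine protease, by -2.85 ± 0.33, and Plat, tissue plasminogen activator, by -2.44 ± 0.39. Of 23 activators, inhibitors and partners of metalloproteases 6 were lower, among them Reck, a membrane-anchored Mmp inhibitor, by -1.97 ± 0.42, and Pcsk5, a proprotein convertase, by -4.06 ± 0.48. Of 17 substrates shed by Adam10 or Adam17, 5 were lower, the Notch ligands Dll1 and Jag1, the growth factors Ereg and Tgfa, and Kitl. No gene of the 4 lists was called higher in this fit. With the block 2 matrix-turnover genes, 1 activator or partner and 4 shed substrates were called higher, and 6, 10 and 5 lower, beside 15 matrix substrates. Of all genes the block called 6.71% higher and 12.9% lower. In luminal progenitors against stem cells the lower counts were 7, 2, 2 and 3, with the matrix substrates first and the other lists in the same order. Again 0 were higher, and 3.6% of all genes were lower. With the block they were 8 lower and 2 higher, 2 and 1, 4 and 1, and 4 and 4, against 9.62% of all genes lower and 4.81% higher. In mature luminal cells against luminal progenitors 4, 1, 0 and 0 were lower, and with the block 8, 4, 2 and 0, with 0 higher in both fits. Of all genes 0.117% were lower there, and 0.923% with the block.

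Averaged over the cell types, Adamts5 and Adamts15 were higher at day 10 of pregnancy than in 9-week virgin mice, and Adam10 was lower. At day 10 these 3 members were called against 9-week virgin mice, as means over the 3 cell types, which was 6.25% of the 48 members against 2.15% of all genes (0.923% higher and 1.22% lower). At day 16 Adamts5 and Adam10 were called, 4.17% of the members against 3.28% of all genes (1.45% higher and 1.83% lower). At day 19, in mature luminal cells, only Mmp14 was called, 2.08% of the members against 1.14% of all genes. With the replicate block the counts were 6, 4 and 4, against 8.34%, 7.27% and 4.71% of all genes. Without the day 10 luminal progenitor array the day 10 count was 1. The day 16 count was 0 without the day 16 mature luminal array, 1 without the day 16 stem cell array and 4 without the 9-week stem cell array titled replicate 2. All stage comparisons share the 9-week arrays.

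Adamts5 is an aggrecanase that also cuts versican. On the 9-week arrays, those titled replicate 2 before those titled replicate 1, it gave 7.55 and 5.99 in stem cells, 3.48 and 5.76 in luminal progenitors and 2.05 and 3.28 in mature luminal cells. At day 10 it gave 6.67 and 6.40 in stem cells, 9.24 in luminal progenitors, and 6.54 and 7.13 in mature luminal cells. At day 16 the values were 7.63, 7.76 and 9.83 in stem, luminal progenitor and mature luminal cells, and at day 19 the mature luminal array gave 6.73. All 4 mature luminal arrays of pregnancy thus lay above both 9-week ones, while the stem cell values overlapped. At 3 weeks Adamts5 gave 8.35 and 7.31 in stem cells, 5.96 and 5.54 in luminal progenitors and 6.35 in mature luminal cells. Retired breeders gave 8.35, 7.17 and 4.16. The 3-week mature luminal value was thus just below the lowest one of pregnancy, and both 3-week stem cell values exceeded those of day 10. The mean difference over cell types was 2.85 ± 0.52 at day 10 (adjusted p = 0.0171 in limma) and 3.72 ± 0.59 at day 16 (adjusted p = 0.00696).

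Within mature luminal cells the Adamts5 difference at day 16 was 7.17 ± 1.02 (adjusted p = 0.00447 in limma). It was 4.17 ± 0.84 at day 10 and 4.07 ± 1.02 at day 19, called only with the block (adjusted p = 0.0129 and 0.0359). The 9-week values lie in the background range, so these differences are no exact folds. With values under the array median raised to it, the mean difference was 1.92 at day 10 and 2.79 at day 16, both still called. The differences were smaller for other probe sets of the gene, 0.96 to 1.66 at day 10 and 0.51 to 2.14 at day 16. Within arrays titled replicate 1 the day 10 difference was 1.81, and within the others 3.12. The mean over probe sets ended both calls (adjusted p = 0.0727 and 0.0557 in limma). Without the day 10 luminal progenitor array the day 10 difference was 1.97, and without the day 16 mature luminal array the day 16 difference was 2.0. On the day 10 luminal progenitor array the stromal marker mean was 10.29, against 7.21 and 6.69 at 9 weeks. On the day 16 and day 19 mature luminal arrays it was 4.19 and 4.12, and on the day 10 ones 6.5 and 3.62, against 4.37 and 5.41 at 9 weeks. The difference of the Adamts5 day 16 change between mature luminal and stem cells was 6.31 ± 1.45. Its adjusted p was 0.279 in the limma interaction test and 0.0728 with the block.

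Adamts15, a protease of aggrecan and versican, stood highest at day 10 in stem and mature luminal cells, and at day 16 in luminal progenitors. Its mature luminal arrays gave 4.51 and 6.20 at 9 weeks, 10.02 and 10.03 at day 10, 7.80 at day 16, 6.95 at day 19 and 5.78 in retired breeders. Stem cells gave 6.61 and 6.65 at 9 weeks, 7.97 and 8.63 at day 10 and 6.39 at day 16. Luminal progenitors gave 6.82 and 7.04 at 9 weeks, 7.91 at day 10 and 9.02 at day 16. The day 10 arrays were above the 9-week arrays of the same cell type in all 3 types. The mean difference was 2.44 ± 0.40 (adjusted p = 0.0100 in limma), and leaving out any array kept the call. Within mature luminal cells it was 4.67 ± 0.64 (adjusted p = 0.0104). That made it the only member called there at day 10 without the block, against 0.449% of all genes. With the block 6 members were called in those cells, against 3.29% of all genes. At day 16 the mean difference of 1.43 was called with the block only (adjusted p = 0.0325).

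Adamts8, which lies next to Adamts15 in the gene order, was called with the block only. Its mature luminal arrays gave 4.84 and 3.66 at 9 weeks, 7.55 and 7.69 at day 10, 6.55 at day 16 and 7.65 at day 19. The mean difference at day 10 was 2.11 ± 0.51, with an adjusted p of 0.0602 in limma and 0.0132 with the block. At day 19 the difference was 3.40 ± 1.01, with 0.172 and 0.0219. Adamts1, which lies next to Adamts5, gave 10.19 and 10.20 in mature luminal cells at 9 weeks and 11.84 and 12.29 at day 10, but 10.50 at day 16 and 9.95 at day 19. That day 10 difference of 1.87 ± 0.43 had an adjusted p of 0.0942, and 0.0181 with the block.

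Adam10 cuts Notch receptors, E-cadherin and several EGF receptor ligands. In stem cells its arrays gave 12.21 and 11.97 at 9 weeks, 11.23 and 11.22 at day 10 and 11.23 at day 16. In luminal progenitors they gave 12.46 and 11.99, then 11.19 and 11.72, and in mature luminal cells 13.01 and 12.26, then 11.77 and 11.41, then 10.76, with 11.73 at day 19. The highest of the 9 arrays of pregnancy, 11.77, lay below the lowest of the 14 others, 11.97. Adam10 was the only member with no such overlap, against 0.371% of all genes lower in this way and 0.026% higher. The mean difference was -0.98 ± 0.20 at day 10 (adjusted p = 0.0248 in limma) and -1.08 ± 0.22 at day 16 (adjusted p = 0.0256). Other probe sets at day 10 gave -1.22 and -2.42. The day 10 call was lost in 6 of 11 fits without a single array, namely without the 9-week mature luminal array titled replicate 2 or any of the 5 day 10 arrays, with differences from -1.11 to -0.86 over the 11 fits. The day 16 difference was -0.68 without the day 16 mature luminal array and -1.19 without the stem cell array, and neither was called. Both calls ended with quantile scaling (adjusted p = 0.0914 and 0.0785) and with the mean over probe sets (0.0576 and 0.0835). Adam9, a related sheddase, was lower by -0.81 at day 10 and -0.74 at day 16, called with the block only (adjusted p = 0.0138 and 0.0230). Adam17 differed by -0.62 ± 0.37 and -0.71 ± 0.42 without a call.

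Mmp14 was called lower late in pregnancy in mature luminal cells. Its mature luminal arrays gave 10.22 at 3 weeks, 10.81 and 9.41 at 9 weeks, 9.29 and 9.25 at day 10, 6.51 at day 16, 6.59 at day 19 and 10.13 in retired breeders. Stem cells gave 10.77 and luminal progenitors 10.65 at day 16, so the low values were those of mature luminal cells. The difference from 9 weeks was -3.60 ± 0.69 at day 16 (adjusted p = 0.0215 in limma) and -3.52 ± 0.69 at day 19 (adjusted p = 0.0355). Other probe sets at day 19 gave -1.44 and -2.01. The day 19 call was lost without the 9-week array titled replicate 2 and with quantile scaling (adjusted p = 0.0537). The difference of the day 16 change between mature luminal and stem cells was -4.74 ± 0.97, with an adjusted p of 0.206 in limma and 0.00604 with the block. At day 16, 3 members were called in mature luminal cells, Adamts5, Mmp14 and Adam10, against 1.96% of all genes. With the block 5 were called, with Adamts9 and Adamts15 added, against 6.46% of all genes. At day 19 the block added Adam15, lower by -2.11 (adjusted p = 0.0416), Adamts5 and Adamts8. Between day 19 and day 16 in mature luminal cells 0 members were called, as were 0 of all genes, and 4 members had an unadjusted p under 0.05.

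**Figure D3:**
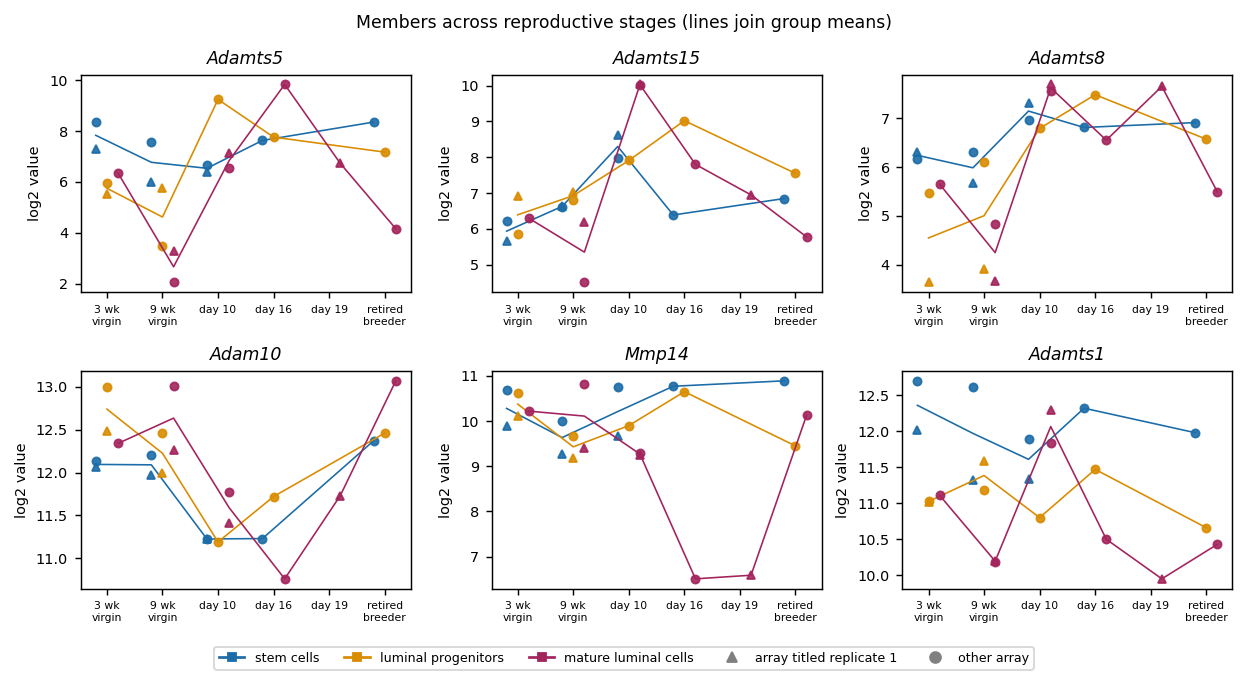
Values of 6 members on every array by stage, coloured by cell type, with triangles for arrays titled replicate 1 and lines through group means. Adamts5 rises from 2.05 and 3.28 to 9.83 at day 16 in mature luminal cells, Mmp14 drops to 6.51 and 6.59 in those cells, and Adam10 lies at or under 11.77 on all arrays of pregnancy.

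The milk protein markers rose at the same stages, with 3 of 5 called higher at day 10, 4 at day 16 and 4 at day 19. All 3 measured markers of hormone-sensing cells were called lower at day 10 and at day 16. The part of such a shift in cell states in the protease values was not tested. Among substrates of Adam10 and Adam17, Epgn, an EGF receptor ligand, was lower by -2.08 ± 0.39 at day 10 and by -3.08 ± 0.45 at day 16. Hbegf and Tgfa, further ligands, were lower at day 16 by -1.30 ± 0.28 and -2.08 ± 0.37. Of the matrix-turnover genes Cst3, an inhibitor of cathepsins, was lower by -0.71 ± 0.16 and -0.85 ± 0.18. No gene of these lists was called higher at either day, and 0 were called at day 19. Of all genes 1.22% were called lower at day 10 and 1.83% at day 16. With the block 3 matrix substrates and 1 matrix-turnover gene were called higher at day 10, and 2 shed substrates and 1 matrix-turnover gene lower. At day 16 it called 3 shed substrates, 2 matrix-turnover genes and 1 activator or partner lower, and at day 19 it called 1 matrix-turnover gene and 1 shed substrate lower. Of all genes the block called 4.18% higher and 4.16% lower at day 10, 3.93% lower at day 16 and 3% lower at day 19.

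Mmp8, neutrophil collagenase, was at or below 3.58 on 21 arrays. It stood at 8.18 on the day 10 luminal progenitor array and at 6.22 on the day 16 luminal progenitor array. These were also the luminal progenitor arrays with the highest leukocyte marker means, 9.77 and 9.17, against 4.55 to 7.86 on the other 5. The highest leukocyte mean of all arrays, 10.15, was that of the 3-week mature luminal array, where Mmp8 was 3.05. The part of leukocytes was not tested. Mmp8 passed the filter only through the 2 luminal progenitor arrays of pregnancy, so its differences are given as a description with no test. In luminal progenitors at day 10 it stood 5.61 above 9 weeks. With the block 2 members were called there, Adamts5 and, by way of the filter, Mmp8, against 0.943% of all genes. Mmp23 was higher at day 10 by 2.20 ± 0.55 over the cell types, called with the block only (adjusted p = 0.0187).

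Virgin mice of 3 weeks and retired breeders gave no call against 9-week virgin mice. At 3 weeks 0 members were called in limma, against 0.176% of all genes, and 8 had an unadjusted p under 0.05. With the block 1 member was called, Adamts9, by 1.17 (adjusted p = 0.0386), against 2.65% of all genes. The members with the largest differences were Adam23 with 2.51, Adamts12 with 2.14 and Adamts5 with 1.96. Adam23 is a catalytically inactive member known from neurons, and Adamts12 is a protease of cartilage matrix. Among the matrix substrates Eln, the elastin gene, and Nid1, a basement membrane nidogen, were called higher at 3 weeks, by 3.06 ± 0.51 and 2.20 ± 0.37, and with the block 6 of the 16 were. Markers of other cell types also differed in level at 3 weeks: the median difference was 1.60 over the endothelial markers (1 of 8 called higher), 1.76 over the stromal markers (0 of 10) and 1.90 over the leukocyte markers (0 of 8). Of the 2 erythroid markers 1 was called higher, and the part of these cells in the member values was not tested. In retired breeders 0 members were called, against 0.0065% of all genes, and 0 with the block, against 0.0195%, while 5 had an unadjusted p under 0.05. The largest differences were those of Adamts12 with 2.77, Mmp2 with 2.68 and Adamts20 with 2.19. All retired breeder arrays carry no number, and with the block these differences were 1.52, 1.95 and 1.15, while that of Mmp3 was the largest, at 2.96. Stromal markers had a median difference of 2.28 and leukocyte markers of 1.84, with 0 called in either list, and their part in the member values was not tested. The median over the 48 members was 0.60, against 0.21 over all genes.

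The Timp genes showed no call between stages. Timp1, which blocks most secreted Mmp proteases, was lowest on the day 16 stem cell array (6.17) and the day 16 mature luminal array (6.61), while day 16 luminal progenitors gave 9.17. On the 9-week arrays it lay between 8.65 and 10.19. The mean difference at day 16 was -1.79 ± 0.52, with an adjusted p of 0.0866 in limma and 0.0574 with the block. Timp2 and Timp3 differed from 9 weeks by -0.27 ± 0.38 and -0.04 ± 0.54 at day 16. Timp3 was higher at 3 weeks by 1.41 ± 0.48 with no call. Timp4 differed by at most 0.82 in size when averaged over the cell types.

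**Figure D4:**
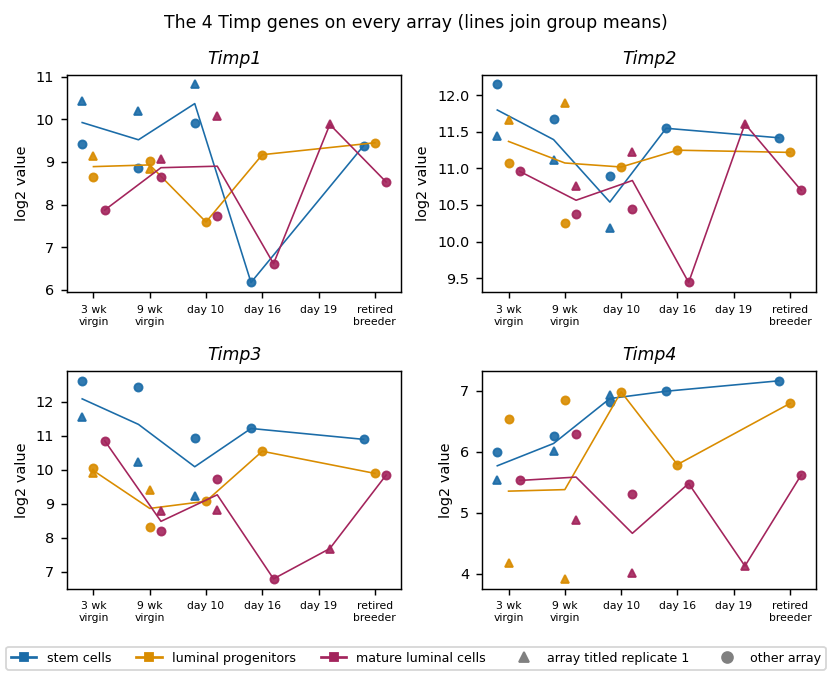
Values of the 4 Timp genes on every array by stage, with colours for cell type, triangles for arrays titled replicate 1 and lines through group means. Stem cell values of Timp3 reach 12.61 and mature luminal values go down to 6.79, and Timp1 is lowest at day 16 in stem and mature luminal cells.

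Several members differed between the 2 arrays of a group along the number in the array titles. Over the 7 groups of 2, Mmp9 was higher on the array titled replicate 1 in all 7 pairs, by a median of 2.55 (range 1.62 to 3.98). Mmp9 is gelatinase B, which is known from neutrophils and macrophages. It ran from 5.33 to 8.84 on the 8 arrays titled replicate 1 and from 3.04 to 6.64 on the 15 others. Adam8 was higher in all 7 pairs too, by a median of 2.04 (range 0.56 to 3.11). Adam9, Adam10, Adam23, Adamts3, Adamts6, Adamts9, Adamts10, Adamts12 and Mmp14 were lower in all 7 pairs. These were 2 and 9 of the 48 members, against 11.4% and 12.3% of all genes with that behaviour. The leukocyte marker mean was lower on the array titled replicate 1 in all 7 pairs, with 4.31 to 6.58 against 6.22 to 8.21. The part of leukocytes in the Mmp9 and Adam8 values was not tested.

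Mmp3 had the widest gap, a median of 4.10 with a range from -2.15 to 5.71, and was higher on the array titled replicate 1 in 5 of 7 pairs. At 9 weeks it gave 8.72 against 3.50 in stem cells, 8.26 against 4.16 in luminal progenitors and 7.34 against 2.37 in mature luminal cells. At day 10 the order was turned, with 4.72 against 6.87 in stem cells and 4.21 against 4.43 in mature luminal cells. Its neighbours in the cluster were high on some of the same arrays. On the 9-week mature luminal array titled replicate 1, Mmp10 (stromelysin 2) gave 8.04, Mmp12 (macrophage elastase) 7.99 and Mmp13 (collagenase 3) 8.08. The other 9-week mature luminal array gave 3.84, 1.93 and 3.14. These 4 genes carry the TGANTCA sequences shown above, but other carriers were low on that array titled replicate 1. Mmp7 gave 3.74 there, and Mmp1a, Mmp1b and Mmp20, which missed the filter, gave 2.06, 3.23 and 2.33. Adam19 and Adam25 gave 2.64 and 2.27. A link between the sequence and these levels was not tested. The leukocyte marker mean was 5.52 on the array titled replicate 1 and 7.34 on the other. The 3-week mature luminal array, with the highest leukocyte mean of all arrays (10.15), gave 6.34 for Mmp10, 5.62 for Mmp12 and 7.24 for Mmp13. The part of leukocytes in these values was not tested. None of Mmp7, Mmp9, Mmp11 and Mmp13 was called in any comparison in limma, with or without the block. Mmp7 and Mmp11 stayed at or below 4.54 and 5.03 on all arrays.

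**Figure D5:**
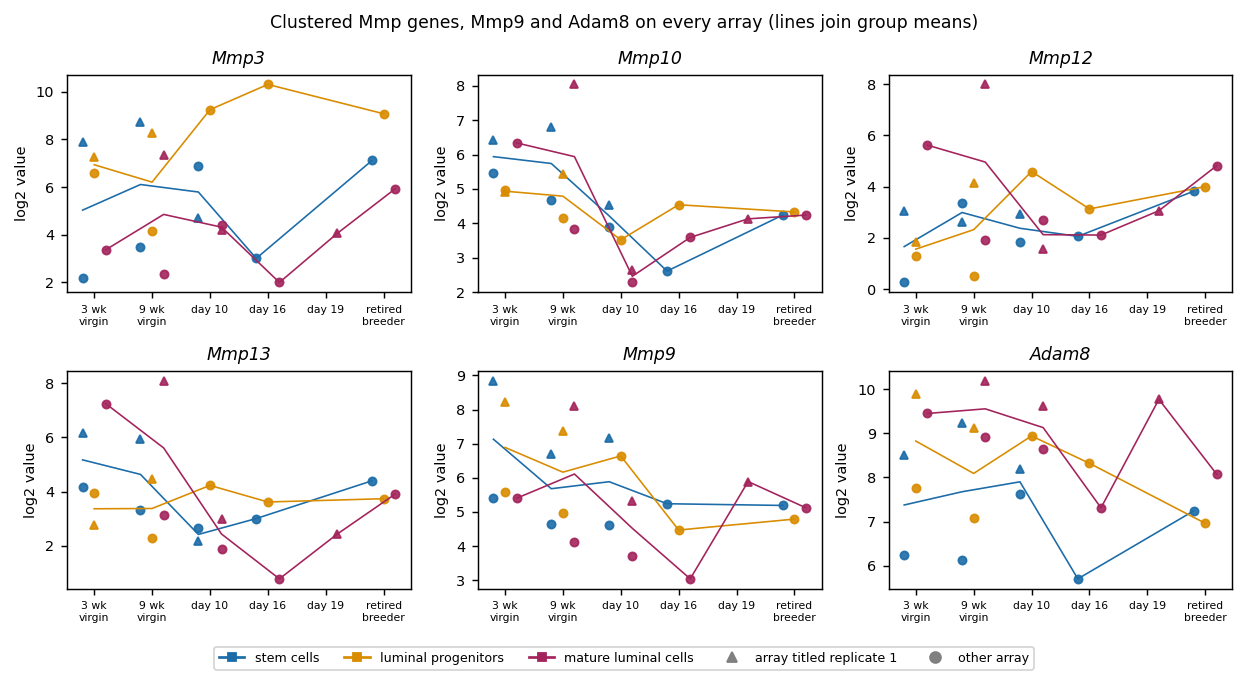
Values of Mmp3, Mmp10, Mmp12, Mmp13, Mmp9 and Adam8 on every array by stage, with colours for cell type and triangles for arrays titled replicate 1. At 9 weeks the triangles of Mmp3 lie at 7.34 to 8.72 and the circles at 2.37 to 4.16, and Mmp9 shows its triangle above its circle in every pair.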

How the data were processed

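The authors deposited log2 expression values of 45101 probe sets on 23 arrays. The summary and scaling method, not given in the sources used here, could shift differences. The log scale was read from the values, and between 1.24% and 2.33% of values on an array were 0. Probe sets were named through the platform annotation, and 34945 had a single symbol. Of the 65 members 30 had several probe sets. limma 3.58.1 in R 4.3.3 fitted 1 mean per group to all arrays (7 residual and 4.74 prior degrees of freedom, eBayes with an intensity trend), with two-sided Benjamini-Hochberg adjusted p-values. The spread of groups with a single array was taken from the 7 groups of 2. Title numbers paired the arrays: deviations from the group means correlated by 0.303 to 0.682 (median 0.470) in all 21 pairs of groups. Unnumbered arrays formed 1 block with replicate 2. Values after ± are standard errors. The number of arrays limits the precision.

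Members and lists were chosen with earlier results of these data known. Named were members called in any main comparison, a preset set of members and the 3 with the largest difference in each comparison. Mmp8, Mmp10, Mmp12, Mmp17, Adamts8, Adam9 and genes called only with the block were named after their values were seen. The model was tested on simulated data with 200 changed genes among 15378 for mature luminal against stem cells. It recovered 3% of genes changed by 1 on the log2 scale, 66% by 2 and 99% by 4. Alternatives changed the scaling, the filter, the low values, the block, the arrays, the trend and the probe sets. Gene order came from a mouse RefSeq table used for order only.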

Additional observations from a re-analysis of the deposited data

How the results depend on the processing

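The 22 differences of named members that were called were refitted under other settings, the replicate block among them. Of 258 refitted values 201 kept their side of the threshold, 57 lost the call and 0 changed direction. Leaving out single arrays gave 293 values, of which 229 kept the call, 64 lost it and 0 changed direction. The mean of all probe sets of a gene ended the Mmp19 call between luminal progenitors and stem cells, and the within-number fits had fewer arrays. For other lost calls the cause was not tested. The differences of mature luminal from stem cells in Mmp2, Adam12 and Adamts1, and the day 10 difference of Adamts15, were called without any single array.

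The counts of members called moved as follows. For refits other than the replicate block the share of all genes is not given, so those changes need not be particular to the members. The replicate block gave 16 (luminal progenitors against stem cells), 19 (mature luminal against stem cells), 2 (mature luminal cells against luminal progenitors), 1 (3 weeks), 6 (day 10), 4 (day 16) and 4 (day 19), and the block over numbered pairs alone gave 12 for luminal progenitors against stem cells and 6 at day 10. The block ended no call made without it. Quantile scaling gave 1 at day 16 and 0 at day 19. Low values raised to the array median gave 8 for luminal progenitors against stem cells, 1 for mature luminal cells against luminal progenitors and 6 at day 10. Arrays titled replicate 1 alone gave 5 for mature luminal against stem cells and 2 at day 19, and the other arrays alone gave 1 at day 10 and 1 at day 16. Only the groups compared gave 0 at day 16 and 0 at day 19. A fit with no intensity trend gave 1 and 0 on those days, and the mean over probe sets 0 and 0. Without both luminal progenitor arrays of pregnancy, an alternative chosen after seeing the data, the day 10 count was 1.

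Leaving out single arrays gave 0 to 8 for luminal progenitors against stem cells (0 without 3-week stem cells replicate 2), 4 to 13 for mature luminal against stem cells (4 without either the day 16 stem cell or the day 16 mature luminal array), 1 to 4 at day 10, 0 to 4 at day 16 (0 without the mature luminal array), 0 to 1 at day 19, and 0 in the other comparisons. Day 16 and retired breeders within replicate 1, day 19 within the others, and all 3 within numbered pairs could not be fitted. Quantile scaling moved the median of all genes from -0.04 to 0.08 (luminal progenitors against stem cells), from 0.11 to -0.06 (3 weeks) and from -0.25 to -0.13 (day 19). In the simulation of mature luminal against stem cells, 3% of differences of 1 on the log2 scale were recovered. It changed 200 of 15378 genes and drew independent noise for each array. In the data 1283 genes were called and arrays of the same number deviated together, so the 3% may not hold for these data.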
